A study of Homo sapiens with 4 samples.

Results

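Chemokine genes are described here as a set of 10 chosen by name out of 58676 identifiers in the count table. It has 8 inflammatory genes, which are the neutrophil attractants CXCL1, CXCL2, CXCL3 and CXCL8, the interferon-linked T-cell attractants CXCL10 and CXCL11, the monocyte attractant CCL2 and the CCR6 ligand CCL20. Its 2 homeostatic genes are CXCL12 and CXCL14. RNA was sequenced from U2OS, an established human osteosarcoma cell line, after cells were given a single-domain antibody (sdAb, a small antibody fragment with a single variable domain) against the transcriptional coregulator MN1 (2 libraries, named M11 in the labels) or a control sdAb (2 libraries). All 4 came from the same line, grown in DMEM with serum and antibiotics. The dose, the time and the way the antibody was given are not stated in the sources used here, and separate cultures are not mentioned, so p-values reflect a library-to-library spread that may be purely technical.

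Chemokines are small secreted proteins that guide the movement of cells by binding G protein-coupled receptors, and they are usually sorted by how they are made. Inflammatory chemokines are induced by cytokines, infection and stress, largely through the transcription factor NF-kB and, for some, through interferon signalling. Homeostatic chemokines are made constitutively and position cells in resting tissue. In bone and bone tumours both classes are known from stromal cells, where CXCL12 retains blood-forming cells in the marrow and CCL2 and CXCL8 attract monocytes and neutrophils.

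The anti-MN1 libraries held 16075169 and 15970324 counts and the control libraries 15740268 and 16816893. Levels are in CPM, counts scaled to a common library size after TMM normalization of library composition, and 3 counts corresponded to 0.173 to 0.193 CPM, for counting error only. The quasi-likelihood test of edgeR was run on all 17524 genes that passed a filter on low counts. A gene was called at a p below 0.05 after Benjamini-Hochberg adjustment, and fold changes are anti-MN1 over control. Across all tested genes 45.3% were called, 23.7% rising and 21.6% falling, the median log2 fold change was -0.0038, and changes of at least 2-fold were found upward in 1.91% and downward in 6.84%. In 70.7% of the tested genes both libraries of a group lay beyond both libraries of the other. Of 10 mesenchymal and osteoblast markers, 6 passed the filter. COL1A1, SPARC and RUNX2 fell, and VIM (log2 fold change -0.06), SPP1 (0.15) and ALPL (0.70) were not called. COL1A1 stood at 159 and 164 CPM in anti-MN1 libraries against 500.1 and 483 CPM in controls. The osteoblast markers SP7 and IBSP had no count in any library. With upper-quartile scaling 38% of the called genes rose, against 52.3% with TMM.

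All 10 genes had counts, and 8 passed the filter. Of these, 7 were called (45.3% of all tested genes were). In detail, 5 rose (CXCL2, CXCL3, CXCL8, CXCL10 and CCL2) and 2 fell (CXCL12 and CXCL14), each by at least 2-fold, and CCL20 was not called. Every gene that rose was inflammatory and both genes that fell were homeostatic. CXCL1 and CXCL11 stayed below the filter. CXCL10 passed it through the anti-MN1 libraries alone. The calls of CXCL2, CXCL8, CCL2 and CXCL14 stood in all 10 alternative settings, and those of CXCL3, CXCL10 and CXCL12, which rest on few counts, did not. Among the 3709 tested genes with a mean below 2 CPM, 3.72% rose and 17.3% fell.

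**Figure D1:**
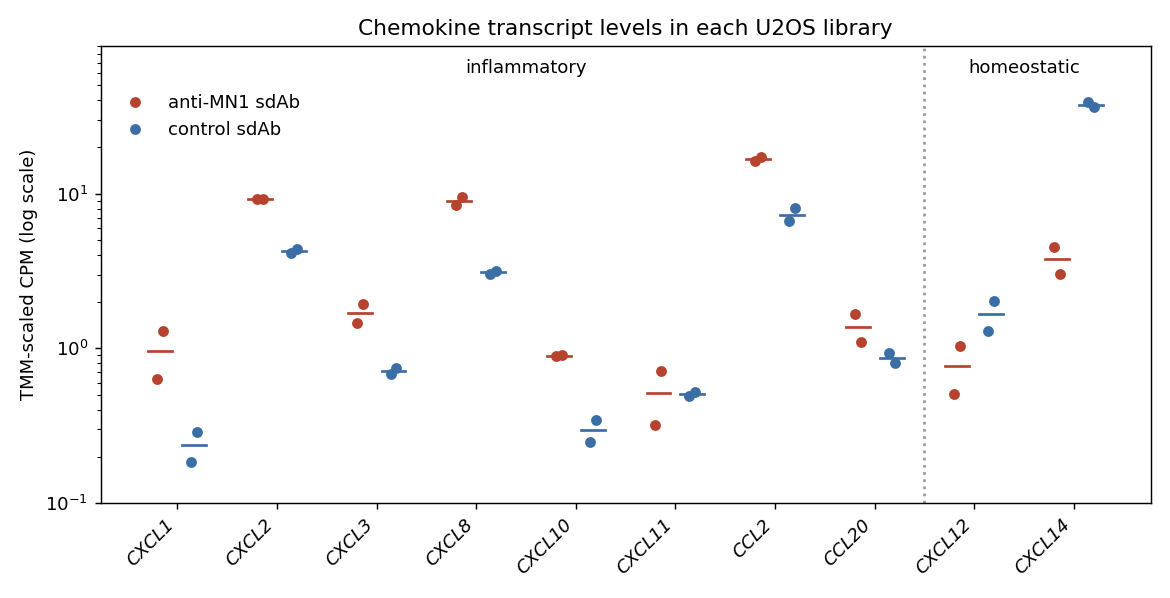
Level of each chemokine gene in every library, in TMM-scaled CPM on a log axis, with points for single libraries and bars for the group means (n = 2 per group). CXCL14 stands at a mean of 3.78 CPM in the anti-MN1 libraries and 37.6 CPM in the controls, while CXCL2, CXCL8 and CCL2 are higher in both anti-MN1 libraries.

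The neutrophil-attracting genes were higher with the anti-MN1 sdAb. CXCL8 (ENSG00000169429), which encodes interleukin-8, stood at 8.49 and 9.48 CPM in anti-MN1 libraries, against 3.03 and 3.18 CPM in control libraries. The groups did not overlap, and the rise was 2.89-fold, 1.53 ± 0.21 (SE) on the log2 scale (edgeR, adjusted p = 4.14e-11). CXCL2 (ENSG00000081041), also called MIP-2 alpha, stood at 9.25 and 9.22 CPM in anti-MN1 libraries, against 4.15 and 4.39 CPM in control libraries. The groups were again apart, and its log2 fold change was 1.11 ± 0.19 (SE; edgeR, adjusted p = 1.27e-07).

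CXCL3, a close relative of CXCL2, stood at 1.47 and 1.93 CPM in anti-MN1 libraries (23 and 30 counts), against 0.681 and 0.751 CPM in control libraries (11 and 13 counts). The groups were apart, and the log2 fold change was 1.24 ± 0.46 (SE; edgeR, adjusted p = 0.0190). This call was lost with DESeq2 (adjusted p = 0.127). It was also lost without anti-MN1 replicate 2 (log2 fold change 1.03, adjusted p = 0.186), without control replicate 1 (1.17, adjusted p = 0.128) and without control replicate 2 (1.31, adjusted p = 0.0794), by edgeR. CXCL1, the founding member of this group, had 10 and 20 counts in anti-MN1 libraries, against 3 and 5 counts in control libraries. Its anti-MN1 libraries were both above the controls but differed from each other. With no filter on low counts its log2 fold change was 1.99 ± 0.69 (SE; edgeR, adjusted p = 0.0212). Where CXCL1 passed the filter with a library left out, it did so only through anti-MN1 libraries, where it was higher. Its log2 fold change was then 2.40 without anti-MN1 replicate 1, 1.71 without control replicate 1 and 2.33 without control replicate 2. Without anti-MN1 replicate 2 it did not pass the filter.

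CXCL1, CXCL2 and CXCL3 arose by gene duplication, so reads can be split among them. Of all 50-base windows of the longest transcript, 5.725% in CXCL1, 9.24% in CXCL2 and 3.015% in CXCL3 also occur in one of the other members of this trio, and no window of CXCL8 occurs in another gene. Summed over CXCL1, CXCL2, CXCL3 and CXCL8, which does not depend on such splitting within the trio, the level was 19.8 and 21.9 CPM in anti-MN1 libraries, against 8.05 and 8.61 CPM in control libraries.

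The promoters of these genes are shown because they carry the letters that inflammatory induction is known to use. Each run is the RefSeq promoter window on GRCh38.p14, from 250 bases before the transcription start to 50 after it, 5′ to 3′ on the strand of the gene, with matches to the searched motifs in capitals. The windows are chr4:73869143-73869442 (plus strand) for CXCL1, chr4:74099146-74099445 (minus strand) for CXCL2, chr4:74038640-74038939 (minus strand) for CXCL3 and chr4:73740319-73740618 (plus strand) for CXCL8.
CXCL1: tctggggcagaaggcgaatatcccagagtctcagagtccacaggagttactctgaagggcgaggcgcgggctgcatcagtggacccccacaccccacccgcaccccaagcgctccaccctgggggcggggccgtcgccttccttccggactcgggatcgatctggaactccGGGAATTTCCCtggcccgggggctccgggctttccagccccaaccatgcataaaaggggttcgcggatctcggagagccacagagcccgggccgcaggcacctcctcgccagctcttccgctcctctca
CXCL2: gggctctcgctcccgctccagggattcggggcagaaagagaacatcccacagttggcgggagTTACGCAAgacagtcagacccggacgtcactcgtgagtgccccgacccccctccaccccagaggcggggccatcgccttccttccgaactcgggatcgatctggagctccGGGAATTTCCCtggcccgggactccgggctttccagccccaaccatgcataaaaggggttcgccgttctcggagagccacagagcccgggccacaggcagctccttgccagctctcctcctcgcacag
CXCL3: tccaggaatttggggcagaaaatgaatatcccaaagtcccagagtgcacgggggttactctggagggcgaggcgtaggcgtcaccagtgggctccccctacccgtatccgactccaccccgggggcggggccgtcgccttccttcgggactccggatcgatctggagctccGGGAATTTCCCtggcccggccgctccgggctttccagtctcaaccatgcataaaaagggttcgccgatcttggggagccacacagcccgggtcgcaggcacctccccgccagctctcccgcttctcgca
CXCL8: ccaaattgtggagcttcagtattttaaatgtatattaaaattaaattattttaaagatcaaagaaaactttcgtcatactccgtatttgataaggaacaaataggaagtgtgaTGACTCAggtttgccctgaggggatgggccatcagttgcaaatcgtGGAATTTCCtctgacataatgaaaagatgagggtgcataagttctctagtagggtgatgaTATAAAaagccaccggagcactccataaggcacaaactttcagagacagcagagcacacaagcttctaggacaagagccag
The trio shares the run GGGAATTTCC, a match to the NF-kB consensus, starting 78 or 79 bases before the start site. CXCL8 did not match the consensus and carries GGAATTTCC from 91 bases before the start, with the AP-1 letters TGACTCA at 137 bases and a TATAAA box at 31 bases. CXCL2 also holds the reverse complement of the C/EBP letters TTGCNNAA, at 188 bases.

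Promoter windows were present for 9 of the 10 genes, without CCL2. On both strands, the NF-kB consensus matched in 6 of these 9 windows, namely those of CXCL1, CXCL2, CXCL3, CXCL10, CXCL11 and CCL20, against 11.3% of 35116 RefSeq promoter windows of the same length. The 9-letter core GGAANTTCC, which overlaps the consensus and was added after the windows were seen, was present in 6 of 9, with CXCL8 in place of CCL20, against 0.965% of all windows. The AP-1 letters TGANTCA were found in CXCL8, CXCL11 and CXCL14 (7.71% of all windows) and TATAAA in CXCL8, CXCL11 and CCL20 (11.5% of all windows). TTGCNNAA was found in CXCL2 (10.5% of all windows). The CXCL12 window matched none of the motifs searched. Among the genes with NF-kB matches, CCL20 was not called, and CXCL1 and CXCL11 did not pass the filter. This does not show that they did not rise. Any relation of the matches to the rises was not tested. A match describes letters, and binding was not measured.

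The interferon-linked pair lay at the edge of detection. CXCL10, which draws activated T cells through CXCR3, had 14 and 14 counts in anti-MN1 libraries (0.894 and 0.902 CPM), against 4 and 6 counts in control libraries (0.248 and 0.347 CPM). The groups did not overlap and the log2 fold change was 1.56 ± 0.64 (SE; edgeR, adjusted p = 0.0343). The call was lost with DESeq2 (adjusted p = 0.187) and with no filter on low counts (adjusted p = 0.0812 in edgeR). It was lost when any library was left out, with edgeR log2 fold changes of 1.58 without anti-MN1 replicate 1 (adjusted p = 0.17), 1.57 without anti-MN1 replicate 2 (adjusted p = 0.174), 1.36 without control replicate 1 (adjusted p = 0.265) and 1.83 without control replicate 2 (adjusted p = 0.154). CXCL11, another CXCR3 ligand, had 5 and 11 counts in anti-MN1 libraries, against 8 and 9 counts in control libraries. These values overlap, and no difference was detectable at this depth, with a log2 fold change of 0.03 ± 0.70 (SE; edgeR, adjusted p = 0.982) without the filter.

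The CXCL10 promoter (chr4:76023448-76023747, minus strand, GRCh38.p14, RefSeq) is shown with capitals as above, since it was the only window of the 9 with a match to the interferon-stimulated response element (ISRE).
CXCL10: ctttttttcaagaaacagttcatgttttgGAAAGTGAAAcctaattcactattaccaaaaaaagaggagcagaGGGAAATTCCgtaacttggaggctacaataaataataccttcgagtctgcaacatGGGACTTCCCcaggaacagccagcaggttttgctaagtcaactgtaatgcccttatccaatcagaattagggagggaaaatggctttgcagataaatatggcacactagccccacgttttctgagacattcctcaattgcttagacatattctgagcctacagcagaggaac
It holds GAAAGTGAAA from 221 bases before the start site, and NF-kB consensus matches GGGAAATTCC at 177 and GGGACTTCCC at 122 bases. The response element letters occur in 3.57% of all promoter windows.

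Around CXCL10, 8 of 12 listed interferon signalling and response genes rose and the other 4 were not called (23.7% of all tested genes rose, median log2 fold change of the list 0.66). The antiviral gene ISG15 rose 6.21-fold, IFIT2 6.80-fold and IFIT3 6.07-fold, and the guanylate-binding protein gene GBP1 rose 2.52-fold, to 41.6 and 43.6 CPM in anti-MN1 libraries, against 16.6 and 17.3 CPM in control libraries. The interferon genes IFNB1 and IFNL1 had no count in any library and IFNG had 1 count in all, in a control library. These genes were listed with earlier results of these data known.

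CCL2 was the most abundant of the inflammatory set. The gene (ENSG00000108691, chromosome 17, 34255218 to 34257203, plus strand, GRCh38) encodes monocyte chemoattractant protein 1. It stood at 16.3 and 17.1 CPM in anti-MN1 libraries, against 6.62 and 8.03 CPM in control libraries. Both anti-MN1 libraries were well above the higher control, a 2.28-fold rise (log2 fold change 1.19 ± 0.14, SE; edgeR, adjusted p = 2.09e-13). CCL20, which draws dendritic cells and lymphocytes through CCR6, stood at 1.66 and 1.10 CPM in anti-MN1 libraries, against 0.929 and 0.809 CPM in control libraries. Although the groups did not overlap, the log2 fold change of 0.66 ± 0.46 (SE) was not called (adjusted p = 0.245 in edgeR), and it passed in none of the 10 alternatives.

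Homeostatic chemokines went the other way, and CXCL14 led. CXCL14, also called BRAK, is expressed in many epithelial and stromal tissues (ENSG00000145824, chromosome 5, 135570679 to 135579279, minus strand, GRCh38). It had 71 and 47 counts in anti-MN1 libraries (4.53 and 3.03 CPM), against 627 and 631 counts in control libraries (38.8 and 36.5 CPM). The higher anti-MN1 library was thus far below the lower control. Its log2 fold change was -3.31 ± 0.13 (SE; edgeR, adjusted p = 7.30e-61), and from -3.62 to -3.04 across the alternatives. CXCL12, the ligand of CXCR4 and ACKR3 (chromosome 10, 44370165 to 44386493, minus strand), had 8 and 16 counts in anti-MN1 libraries (0.511 and 1.03 CPM), against 21 and 35 counts in control libraries (1.30 and 2.02 CPM). The groups did not overlap, and the log2 fold change was -1.11 ± 0.46 (SE; edgeR, adjusted p = 0.0373).

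The call of CXCL12 was lost with DESeq2 (adjusted p = 0.202) and with no filter (adjusted p = 0.0667 in edgeR). In edgeR it was lost without anti-MN1 replicate 1 (log2 fold change -0.68, adjusted p = 0.328), without control replicate 1 (-1.38, adjusted p = 0.0725) and without control replicate 2 (-0.75, adjusted p = 0.410). Without anti-MN1 replicate 2 it was -1.68 (adjusted p = 0.0234). Around CXCL12, the 59 tested genes within 5 Mb had a median log2 fold change of -0.32, and the 100 around CXCL14 had 0.01. The corresponding medians were 0.05 around CXCL8 (41 genes) and -0.07 around CCL2 (116 genes).

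The CXCL14 promoter (chr5:135578942-135579241, minus strand, GRCh38.p14, RefSeq) is shown because CXCL14 had the largest fall of the set.
CXCL14: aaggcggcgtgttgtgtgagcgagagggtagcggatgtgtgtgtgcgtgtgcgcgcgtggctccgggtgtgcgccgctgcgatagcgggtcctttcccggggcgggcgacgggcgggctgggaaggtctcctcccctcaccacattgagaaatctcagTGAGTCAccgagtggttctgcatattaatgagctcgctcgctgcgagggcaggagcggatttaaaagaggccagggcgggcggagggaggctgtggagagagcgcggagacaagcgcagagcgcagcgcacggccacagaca
Of the motifs searched, it matched only the AP-1 letters, as TGAGTCA from 92 bases before the start site. On the opposite strand, SLC25A48, a mitochondrial carrier family gene, overlaps the start of CXCL14. Other-strand genes cover 4.81% of the exonic bases of CXCL14, and 2.39% of its 50-base windows occur in other genes. Without a stated strand setting, reads from the overlap cannot be assigned. SLC25A48, named after its values were seen, had 3 and 7 counts in anti-MN1 libraries, against 40 and 68 counts in control libraries. SLC25A48 passed the filter through the controls alone. Its log2 fold change was -3.29 ± 0.46 (SE, adjusted p = 1.71e-10 in edgeR), beside -3.31 for CXCL14.

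**Figure D2:**
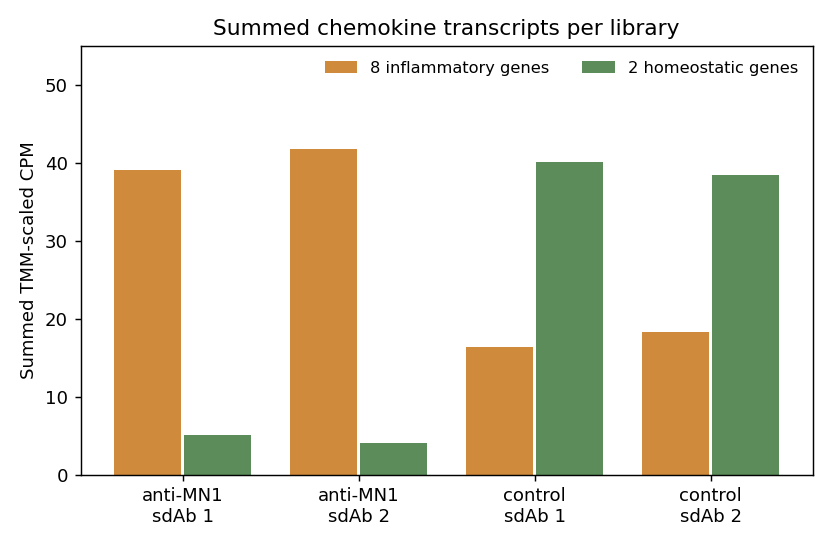
Summed TMM-scaled CPM of the 8 inflammatory and the 2 homeostatic genes in each library. Inflammatory transcripts exceed homeostatic ones in both anti-MN1 libraries, at 39.1 and 41.8 against 5.04 and 4.06 CPM, and the order is turned round in both controls.

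The inflammatory sum was above the homeostatic sum in the anti-MN1 libraries and below it in the controls. The order in the controls rested on CXCL14. Both a higher inflammatory sum and a lower CXCL14 level went with the order in the anti-MN1 libraries. The 8 inflammatory genes together stood at 39.1 and 41.8 CPM in anti-MN1 libraries, against 16.3 and 18.3 CPM in control libraries. The 2 homeostatic genes stood at 5.04 and 4.06 CPM in anti-MN1 libraries, against 40.1 and 38.5 CPM in control libraries. Inflammatory genes thus made up 88.6% and 91.1% of the summed CPM of the 10 genes in anti-MN1 libraries, against 28.9% and 32.2% in control libraries. The sum of all 10 was 44.1 and 45.8 CPM in anti-MN1 libraries and 56.5 and 56.8 CPM in control libraries. CCL2 alone supplied 41.8% and 41.0% of the inflammatory sum in anti-MN1 libraries and 40.5% and 43.8% in control libraries, so its share hardly moved. CXCL14 supplied 89.9% and 74.6% of the homeostatic sum in anti-MN1 libraries and 96.8% and 94.7% in control libraries. Without CXCL14 the homeostatic class was CXCL12 alone, which lay below the inflammatory sum in all 4 libraries. These sums are descriptions, and no test was made on them. In RNA from a bulk culture, a change in the number of expressing cells and in RNA per cell cannot be told apart.

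On the scale of RPKM, in which CPM is divided by exon length in kilobases, which allows genes to be compared, the order of levels was different in the 2 groups. In anti-MN1 libraries CCL2 was highest at 8.43 ± 0.287 RPKM (SD, n = 2), followed by CXCL2 at 6.16 ± 0.0174, CXCL8 at 3.95 ± 0.307 and CXCL14 at 1.91 ± 0.538 RPKM. Below these, CCL20, CXCL3, CXCL10 and CXCL1 lay between 0.744 and 0.864 RPKM and did not differ beyond their spread, and CXCL11 and CXCL12 were lowest at 0.269 ± 0.145 and 0.127 ± 0.0606 RPKM. In control libraries CXCL14 was highest at 19.1 ± 0.846 RPKM, followed by CCL2 at 3.69 ± 0.501, CXCL2 at 2.85 ± 0.114 and CXCL8 at 1.37 ± 0.0447 RPKM. CCL20 stood at 0.545 ± 0.0532 RPKM there, and CXCL3, CXCL12, CXCL11 and CXCL10 lay between 0.253 and 0.323 RPKM within or near their spread, above CXCL1 at 0.183 ± 0.0563 RPKM. CXCL14 was thus first of the 10 in the control libraries and the fourth in the anti-MN1 libraries. With the longest transcript as length in place of all exons, CCL2 stood at 16.8 ± 0.573 RPKM in anti-MN1 libraries and 7.36 ± 0.998 RPKM in control libraries. On that scale CCL20 stood at 1.64 ± 0.475 RPKM in anti-MN1 libraries and 1.04 ± 0.101 RPKM in control libraries, and CXCL12 at 0.218 ± 0.104 RPKM in anti-MN1 libraries and 0.470 ± 0.145 RPKM in control libraries. The first 5 places kept their order in both groups.

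**Figure D3:**
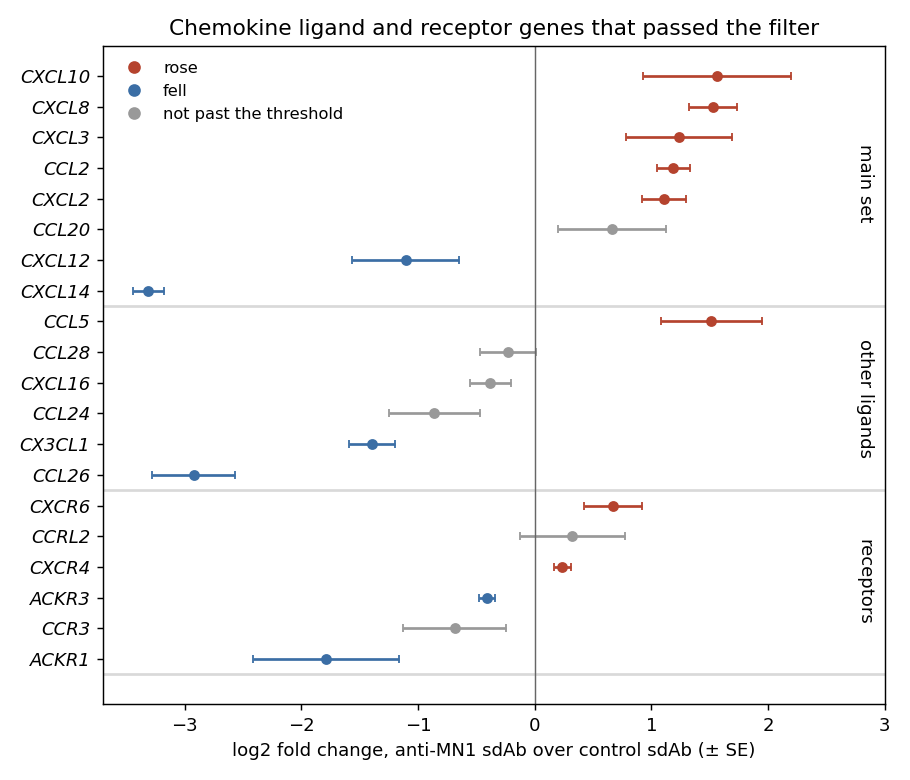
Log2 fold change, anti-MN1 sdAb over control sdAb, with its standard error, for the chemokine ligand and receptor genes that passed the filter (8 of the 10 described genes, 6 other ligands and 6 receptors). CXCL14 at -3.31 and CCL26 at -2.92 lie farthest to the left, and CXCL10, CXCL8 and CCL5 lie above 1.5.

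Most other chemokine ligand genes had few counts or none. Of 36 further ligand genes in the table, 18 had no count in any library and 6 passed the filter, of which 1 rose and 2 fell (23.7% of all tested genes rose and 21.6% fell). CCL5, also called RANTES, a T-cell and monocyte attractant, rose to 2.11 and 2.19 CPM in anti-MN1 libraries, against 0.805 and 0.693 CPM in control libraries, a log2 fold change of 1.51 ± 0.43 (SE, adjusted p = 0.00186 in edgeR). CCL26, or eotaxin-3, an eosinophil attractant that binds CCR3, had 7 and 12 counts in anti-MN1 libraries, against 84 and 72 counts in control libraries. Its log2 fold change of -2.92 ± 0.36 (SE) was second in size to that of CXCL14 among the 14 chemokine ligand genes tested. CX3CL1, or fractalkine, which is made as a membrane-anchored chemokine, stood at 3.26 and 3.80 CPM in anti-MN1 libraries, against 9.35 and 9.19 CPM in control libraries, a log2 fold change of -1.39 ± 0.20 (SE). CCL24, CXCL16 and CCL28 were not called, with log2 fold changes from -0.86 to -0.23. The calls of CCL5, CCL26 and CX3CL1 stood in all 10 alternatives. Falls were therefore not confined to the homeostatic pair.

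Several receptors of the inflammatory ligands had few counts or none. CXCR1 and CCR2, the receptors of CXCL8 and CCL2, had no count in any library, which allows up to 0.193 CPM, and CXCR2 had 4 and 1 counts in anti-MN1 libraries, against 1 and 0 counts in control libraries. CXCR3, the receptor of CXCL10 and CXCL11, had 1 count in all, in an anti-MN1 library. CCR6, the receptor of CCL20, had 3 counts, all in a control library. Same-strand genes cover 69.2% of the exonic bases of CCR6, where reads may not be assignable, so its counts may be too low. Of 24 receptor genes 6 passed the filter, with 2 higher and 2 lower (23.7% of all tested genes rose and 21.6% fell). With DESeq2 0 were higher and 1 was lower. The CXCL12 receptors were the abundant ones. ACKR3, a scavenging receptor, stood at 44.0 and 47.1 CPM in anti-MN1 libraries, against 59.6 and 61.3 CPM in control libraries, a log2 fold change of -0.41 ± 0.07 (SE, adjusted p = 1.63e-07 in edgeR). CXCR4, the signalling receptor, stood at 53.7 and 51.1 CPM in anti-MN1 libraries, against 43.8 and 45.2 CPM in control libraries, a log2 fold change of 0.23 ± 0.07 (SE, adjusted p = 0.00453 in edgeR).

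The call of CXCR4 was lost with DESeq2 (adjusted p = 0.0637), with upper-quartile scaling (adjusted p = 0.0843 in edgeR), without anti-MN1 replicate 1 (log2 fold change 0.20, adjusted p = 0.0599) and without control replicate 1 (0.21, adjusted p = 0.0610). CXCR6, the receptor of CXCL16, rose 1.59-fold, and its call was lost with DESeq2 (adjusted p = 0.144), without anti-MN1 replicate 1 (log2 fold change 0.62, adjusted p = 0.111) and without control replicate 1 (0.47, adjusted p = 0.206). ACKR1, which binds many inflammatory chemokines, had 5 and 4 counts in anti-MN1 libraries, against 18 and 16 counts in control libraries, and passed the filter through the controls. Its log2 fold change of -1.79 was called (adjusted p = 0.0126 in edgeR), but not with DESeq2 (adjusted p = 0.109) or when any library was left out (-1.94 and -1.64 without anti-MN1 replicates 1 and 2, -1.65 and -1.92 without control replicates 1 and 2).

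On chromosome 4 lie 6 of the 10 genes, in separate clusters. CXCL8, CXCL1, CXCL3 and CXCL2 belong to a run of 9 chemokine genes over 358.8 kb (73740506 to 74099293, GRCh38), in which the 5 others, CXCL6, PF4V1, PF4, PPBP and CXCL5, had 1 count in all. With so few counts those 5 could show no direction. CXCL8, CXCL3 and CXCL2 rose, and CXCL1 stayed below the filter. Among the non-chemokine protein-coding genes within 500 kb, 6 were tested, of which 4 rose and 2 were not called (23.7% of all tested genes rose). Only 2 rose with DESeq2, with upper-quartile scaling, without anti-MN1 replicate 2 and without control replicate 2, and 3 without anti-MN1 replicate 1 or control replicate 1. ANKRD17, an ankyrin repeat gene, was the smallest of the 4 rises at 0.11 on the log2 scale, and its call was lost with DESeq2 (adjusted p = 0.129), with upper-quartile scaling (adjusted p = 0.692 in edgeR), without anti-MN1 replicate 2 (0.09, adjusted p = 0.144) and without control replicate 2 (0.05, adjusted p = 0.35). The epidermal growth factor family genes EPGN and AREG were higher, EPGN at 4.6 and 3.80 CPM in anti-MN1 libraries, against 1.18 and 1.44 CPM in control libraries, and AREG at 7.34 and 7.61 CPM in anti-MN1 libraries, against 2.04 and 3.0 CPM in control libraries. MTHFD2L, a mitochondrial folate enzyme gene and the nearest tested neighbour at 14.9 kb, had a log2 fold change of 0.05 ± 0.13 (SE, adjusted p = 0.768 in edgeR). EREG, of the same growth factor family, had a log2 fold change of 0.60, and its call (adjusted p = 0.0465 in edgeR) stood in 2 of the 10 alternatives. It was lost with DESeq2 (adjusted p = 0.220), with upper-quartile scaling (adjusted p = 0.0915), with no filter (adjusted p = 0.0702), with the non-robust prior (adjusted p = 0.0523) and with any library left out, at 0.62 and 0.61 without anti-MN1 replicates 1 and 2 and 0.77 and 0.45 without control replicates 1 and 2. Around the separate group of CXCL9, CXCL10, CXCL11 and CXCL13, 17 neighbours were tested, of which 5 rose and 4 fell (23.7% of all tested genes rose and 21.6% fell), shares near those of all genes. USO1, NAAA and SDAD1 lost their calls with DESeq2 and with upper-quartile scaling, leaving 2 that rose, and 3 rose without anti-MN1 replicate 1 or without control replicate 2.

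**Figure D4:**
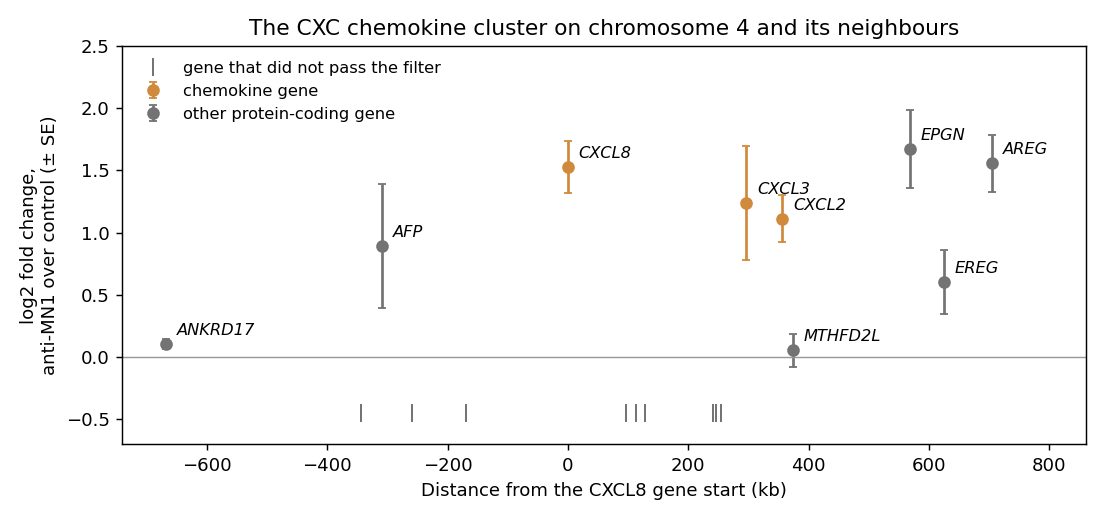
Log2 fold change with its standard error for tested genes of the CXC chemokine cluster on chromosome 4 and its protein-coding neighbours within 500 kb, against the distance from the start of CXCL8, with ticks for genes that did not pass the filter. CXCL8, CXCL3, CXCL2, EPGN and AREG lie above 1, and MTHFD2L, between them, lies at 0.05.

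The mRNAs of the neutrophil attractants also share AU-rich letters after the stop codon. ATTTA, a core of AU-rich elements that shorten the life of many cytokine mRNAs, was counted in the 3′ untranslated part of the longest protein-coding transcript of each gene. It occurred 10 times in CXCL2, 9 times in CXCL8, 7 times in CXCL3 and 5 times in CXCL1, and 3 times in CCL20. As many copies were found in 0.062% (CXCL2), 2.66% (CXCL8), 0.837% (CXCL3) and 5.99% (CXCL1) of tested protein-coding genes whose untranslated part was of like length, within 1.25-fold. CXCL10, CXCL11, CXCL14 and CCL2 had 1 copy each, and CXCL12 had 4 in its 3163 bases, where the median gene of like length had 7. Of the genes with 1 copy, CCL2 and CXCL10 were called higher, CXCL10 in only 4 of the 10 alternatives. Any relation of these letters to the rises was not tested. Of 8 regulators of AU-rich mRNAs, 4 rose and the other 4 were not called (23.7% of all tested genes rose), while 2 rose with upper-quartile scaling. The endonuclease gene ZC3H12A rose 1.46-fold and ZFP36, which encodes tristetraprolin, 1.43-fold, both genes of proteins that promote decay. KHSRP rose 1.11-fold, which was not called with upper-quartile scaling (adjusted p = 0.171 in edgeR). ELAVL1 rose 1.09-fold (adjusted p = 0.0224 in edgeR). The call of ELAVL1 was lost with DESeq2 (adjusted p = 0.161) and with upper-quartile scaling (adjusted p = 0.500 in edgeR). It was also lost without anti-MN1 replicate 1 (log2 fold change 0.09), without control replicate 1 (0.14) and without control replicate 2 (0.13).

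Of 15 genes of the NF-kB pathway, 11 rose and the other 4 were not called (median log2 fold change 0.32, where 23.7% of all tested genes rose). The 15 were subunits, inhibitors, the kinase-complex genes CHUK, IKBKB and IKBKG, and the target BIRC3. TNFAIP3, which encodes the feedback inhibitor A20, rose to 24.2 and 28.5 CPM in anti-MN1 libraries, against 13.6 and 14.6 CPM in control libraries. BIRC3 rose 1.52-fold, NFKB2 1.29-fold and NFKBIB 1.37-fold. Of 23 inducing cytokines and their receptors, 15 were tested, and 7 rose and 3 fell (23.7% of all tested genes rose and 21.6% fell), while 0 fell with DESeq2, 1 without control replicate 1 and 0 without control replicate 2. IL6 rose 7.18-fold, IL1A 2.10-fold and the macrophage growth factor gene CSF1 1.89-fold, and IL6ST, the shared receptor chain gp130, 1.34-fold. TNF, a classical inducer of these chemokines, had 1 and 4 counts in anti-MN1 libraries, against 1 and 0 counts in control libraries, and IL1B had 20 and 19 counts in anti-MN1 libraries, against 12 and 6 counts in control libraries (adjusted p = 0.0503 in edgeR). Of 10 AP-1 and C/EBP factor genes, 7 rose and 1 fell (23.7% of all tested genes rose and 21.6% fell), with FOSL1 up 1.96-fold, CEBPB 1.83-fold, JUNB 1.36-fold and JUN 1.25-fold. Of 9 genes of proteases that cleave chemokines, 8 were tested, and 2 rose and 3 fell (23.7% of all tested genes rose and 21.6% fell). MMP3 rose 4.83-fold and CTSL 1.35-fold, while MMP14 fell by 0.83 and CTSB by 0.34 on the log2 scale. DPP4, which trims CXCL12 and CXCL10, had a log2 fold change of -0.66 ± 0.31 (SE, adjusted p = 0.0692 in edgeR).

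Markers of other cells that make chemokines were checked beside these results. Of 14 blood markers 13 stayed below 1 CPM in every library. PTPRC stood at 0.447 and 0.322 CPM in anti-MN1 libraries, against 0.433 and 0.636 CPM in control libraries. HBB, CD3E and CD68 had no count. Same-strand genes cover 81.7% of the exonic bases of CD68, where reads may not be assignable, so its lack of counts says little. The summed blood markers stood at 27.1 and 27.9 CPM in anti-MN1 libraries, against 21.9 and 21.3 CPM in control libraries, of which LYN, a kinase gene, made up 25.2 and 25.7 CPM in anti-MN1 libraries, against 19.1 and 18.7 CPM in control libraries. The 5 endothelial markers summed to 6.19 and 6.64 CPM in anti-MN1 libraries, against 8.98 and 7.45 CPM in control libraries. Of these, TEK and VWF were called lower, at -0.82 (adjusted p = 0.00764 in edgeR) and -1.18 (adjusted p = 0.0477). Both calls were lost with DESeq2 (adjusted p = 0.0919 for TEK and 0.213 for VWF), that of TEK also without anti-MN1 replicate 1 (-0.61) and without control replicate 1 (-0.61), and that of VWF with any library left out (-1.02 and -1.35 without anti-MN1 replicates 1 and 2, -0.91 and -1.41 without control replicates 1 and 2) and with no filter (adjusted p = 0.0920). The 5 epithelial markers, mostly KRT8 and KRT18, summed to 999.9 and 1025 CPM in anti-MN1 libraries, against 944.7 and 943 CPM in control libraries. Within this sum KRT18 rose 1.19-fold and CLDN4 1.60-fold, and CDH1 was called lower at -1.62 on the log2 scale (adjusted p = 0.0181 in edgeR). CDH1 had 5 and 6 counts in anti-MN1 libraries, against 10 and 27 counts in control libraries, and passed the filter through the controls. The call of CDH1 was lost with DESeq2 (adjusted p = 0.151), without anti-MN1 replicate 1 (-1.48), without anti-MN1 replicate 2 (-1.75) and without control replicate 2 (-0.80). The 10 mesenchymal and osteoblast markers summed to 635 and 643 CPM in anti-MN1 libraries, against 1149 and 1129 CPM in control libraries, a difference that lay in COL1A1 and SPARC for the most part. Its part in the fall of CXCL14 and CXCL12 was not tested.

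The genes closest in pattern were sought for CXCL8 and CXCL14 among protein-coding genes averaging 5 CPM or more, by Euclidean distance between centred log2 values over the 4 libraries. CXCL8 lay nearest to DCLK1, a kinase gene, at a distance of 0.0802, to TXNIP, a thioredoxin inhibitor gene, at 0.0926 and to DUSP4, a MAP kinase phosphatase gene, at 0.10, with log2 fold changes of 1.53, 1.41 and 1.44. CXCL14 had no neighbour as close. HAPLN1, a hyaluronan link protein gene, lay at 0.389, IGFBP5 at 0.424 and the meiosis gene SHOC1 at 0.535, with log2 fold changes of -3.06, -2.93 and -3.08.

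**Figure D5:**
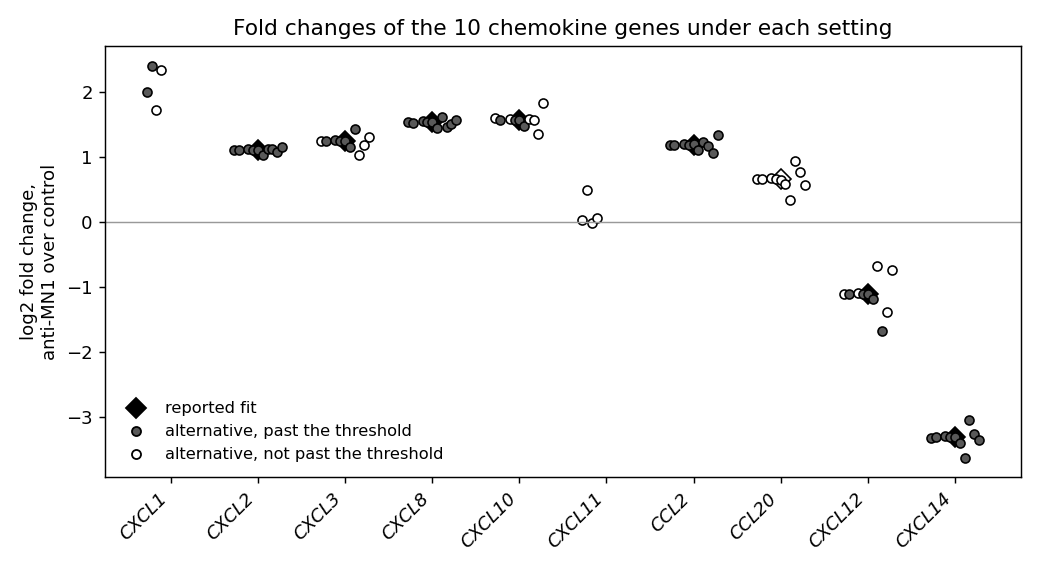
Log2 fold change of the 10 genes in the reported fit (diamonds, open where not called) and in the alternatives (circles, filled where the adjusted p was below 0.05). CXCL1 and CXCL11, which did not pass the filter, have circles only. CXCL2, CXCL8, CCL2 and CXCL14 are filled throughout, and CXCL3, CXCL10 and CXCL12 mix filled and open circles.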

How the data were processed

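RNA-seq counts per gene were deposited by the authors as a table of whole-number counts for 4 libraries. Bowtie2 and HTSeq, with hg38 and GRCh38, are named in the submitters' processing notes. Roles and versions, the gene annotation and whether strand was used: not given in the sources used here. Identifiers were matched to GENCODE symbols, 58207 of them to current symbols. Columns were assigned by group letter and replicate number.

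From the counts, genes were filtered with filterByExpr, scaled with TMM and tested with edgeR 4.0.16 (R 4.3.3), using the robust quasi-likelihood test with Benjamini-Hochberg adjustment, threshold 0.05, no block. The kept genes held 99.76% to 99.82% of the counts of each library. RPKM used the union of exons. DESeq2 1.42.0, other scalings, no filter, a replicate block, leaving out each library and a non-robust prior were alternatives.

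Members and lists were chosen with earlier results of these data known. The named genes were the 10 chemokines, called ligands and receptors, up to 4 listed genes with the smallest p or a change of at least 2-fold, the 3 nearest patterns, and cluster neighbours. Others, such as TNF, IL1B, the uncounted receptors and interferons, KHSRP and DPP4, were named after their values were seen. Replicates within a group differed by more than sampling noise (chi-square per degree of freedom 1.98 for anti-MN1 and 2.21 for control libraries). Promoter sequences are from RefSeq.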

Additional observations from a re-analysis of the deposited data

How the results depend on the processing

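No called fold change among the 10 genes or the other listed genes changed sign, but over all genes rises outnumbered falls in the reported fit (4153 against 3789) and not with upper-quartile scaling (3058 against 4985). Of the 10 genes, 5 rose in the reported fit and 3 with DESeq2. Which genes rose also changed with a library left out. CXCL10 lost its call in each such fit, and CXCL3 without anti-MN1 replicate 2 or either control. Without anti-MN1 replicate 1, CXCL1 was called in place of CXCL10, at a log2 fold change of 2.40. Of the 10 genes, 2 fell in the reported fit, 1 with DESeq2, 1 with no filter and 1 to 2 with a library left out. CXCL3 (log2 fold change 1.25) and CXCL10 (1.59) lost their calls with DESeq2, as did CXCL12 (-1.11). With no filter CXCL10 (1.58) and CXCL12 (-1.09) lost theirs and CXCL1 gained a call. Leaving out libraries gave 1.03 to 1.43 for CXCL3, 1.36 to 1.83 for CXCL10 and -1.68 to -0.68 for CXCL12. Over all genes 3789 fell in the reported fit and 2338 with DESeq2. With upper-quartile scaling 4 other ligands fell, 1 receptor rose and 2 regulators of AU-rich mRNAs rose. With DESeq2 0 receptors rose and 1 fell, and 0 cytokine genes fell. With no filter 1 cytokine gene fell. With a library left out 0 to 2 receptors rose, 1 receptor fell and 0 to 2 cytokine genes fell. With the longest transcript as length, the mean level was 5.54 RPKM for CXCL2, 0.736 for CXCL3, 3.54 for CXCL8, 0.344 for CXCL12, 12.1 for CCL2 and 1.34 for CCL20. The causes were not tested. The labels do not pair same-numbered libraries, whose deviations correlated at -0.003. With the replicate number as a block 4147 genes rose and 3732 fell, and no call among the 10 genes changed, while the marker VWF lost its call (adjusted p = 0.0600 in edgeR). The non-robust prior, chosen after seeing the data, changed none of them. With 2 libraries a group, genes under about 2 CPM are limited by counting.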
